A study of Mus musculus with 9 samples.

Results

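The genes described here are 37 neuronal and synaptic genes. They were chosen by their known roles in the neuronal cytoskeleton, the synaptic vesicle, the glutamate synapse and the GABA synapse. Earlier results of these data were known when they were chosen. Of the 37 genes, 35 had a probe set annotated to them alone and were analysed, among 17097 genes named in the series. *Grin1* and *Dlg4* were not analysed here. Each gene was read on a single probe set, the brightest over all arrays where several were annotated to it. The mice were C57Bl/6J males aged 10 to 12 weeks that received a single intrastriatal injection of PBS or of lipopolysaccharide (LPS), the bacterial cell wall component that starts an innate immune response. Brain tissue around the injection site of the injected hemisphere was taken 1 d after LPS (induction of inflammation), 4 d after LPS (resolution) or 4 d after PBS, with 3 arrays in each of the 3 groups. Each array measured RNA pooled from several mice. There was no PBS group at 1 d among these arrays, and both LPS comparisons used the same PBS arrays.

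Neurons signal when vesicles loaded with transmitter fuse with the presynaptic membrane, a step carried out by SNARE proteins and timed by calcium sensors. Glutamate then opens AMPA and NMDA receptors held in place by postsynaptic scaffolds, and GABA, made by the glutamate decarboxylases, opens inhibitory chloride channels. The striatum is rich in GABA neurons, most of its projection neurons included. Neurofilaments, the intermediate filaments of axons, set the calibre of large axons.

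The values are log2 intensities after robust multi-array averaging (RMA), on which a step of 1 is a doubling of signal. Arrays of a group correlated at 0.992 to 0.994 over all probe sets and arrays of different groups at 0.981 to 0.990. A gene was called changed at a Benjamini-Hochberg adjusted p under 0.05 from limma together with a fold change of at least 1.5. The highest mean of the nonspecific control probe sets, 3.49, was taken as background, and 34 of the 35 genes had a mean above it. The exception was *Nlgn1*, a postsynaptic adhesion protein, whose 9 values lay between 2.18 and 2.93. In homogenised tissue, fewer neurons and less RNA per neuron cannot be told apart.

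Differences of the neuronal and synaptic transcripts from PBS were small after LPS and lay mostly below 0. The 95% confidence interval of a change reached a median of 0.18 to either side, and 0.15 to 0.51 over the genes above background. At 1 d, 0 of the 35 genes passed the test in either direction, where 0.532% of all genes passed as lower and 3.86% as higher. With no adjustment, 10 of the 35 had a limma p under 0.05 as lower, beside 8.43% of all genes, and 0 as higher, beside 9.40%. At 4 d, 1 gene passed as lower, *Gad2*, and 0 as higher, beside 0.205% and 4.21% of all genes. The unadjusted p was under 0.05 for 11 as lower, beside 7.07%, and 0 as higher, beside 10.6%. Between 4 d and 1 d after LPS, 0 of the 35 passed, beside 1.37% of all genes lower and 1.84% higher, and 3 lower and 1 higher had an unadjusted p under 0.05, beside 7.12% and 9.18%. Without the fold threshold, the adjusted p was under 0.05 for *Stx1a* and *Homer1* at 1 d, beside 1.13% of all genes lower, and for *Gad2* and *Nefh* at 4 d, beside 0.550%. No gene of the 35 reached it as higher, beside 4.51% and 4.88% of all genes. Between 4 d and 1 d it was reached by *Gad2* as lower, beside 1.61%, and by 0 as higher, beside 2.25%. Across the 3 groups, the F-test adjusted p was under 0.05 for *Gad2*, *Nefh* and *Homer1*, 3 of the 35 genes, where 7.67% of all genes reached it.

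The direction of the small differences was nonetheless one-sided. The median log2 change of the 35 genes was -0.07 at 1 d, when 28 lay below PBS, and -0.12 at 4 d, when 34 did. Over all genes the medians were -0.03 and -0.02, and 56.6% and 55.6% lay below PBS. Over genes above background the medians were -0.035 and -0.035, and 59.4% and 58.5% lay below PBS. All 3 LPS arrays lay below all 3 PBS arrays for 12 of the 35 genes at 1 d, beside 14.0% of all genes, and for 16 at 4 d, beside 11.8%. Among genes above background those shares were 18.5% and 15.2%. Between the LPS times, 11 of the 35 lay lower at 4 d with no overlap, beside 9.76% of all genes, and 5 higher, beside 11.4%. No gene of the 35 had all 3 LPS arrays above all 3 PBS arrays at either time, beside 11.5% and 12.0% of all genes. Many of these genes are expressed in the same neurons and all share arrays, so their shared direction is a description. In the members above background, the median difference from the PBS mean was -0.06, -0.07 and -0.10 in the 1 d arrays and -0.17, -0.09 and -0.13 in the 4 d arrays, against -0.02 to 0.02 in the PBS arrays. An exact permutation test of a single value with 3 arrays against 3 cannot give a two-sided p below 0.1.

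**Figure D1:**
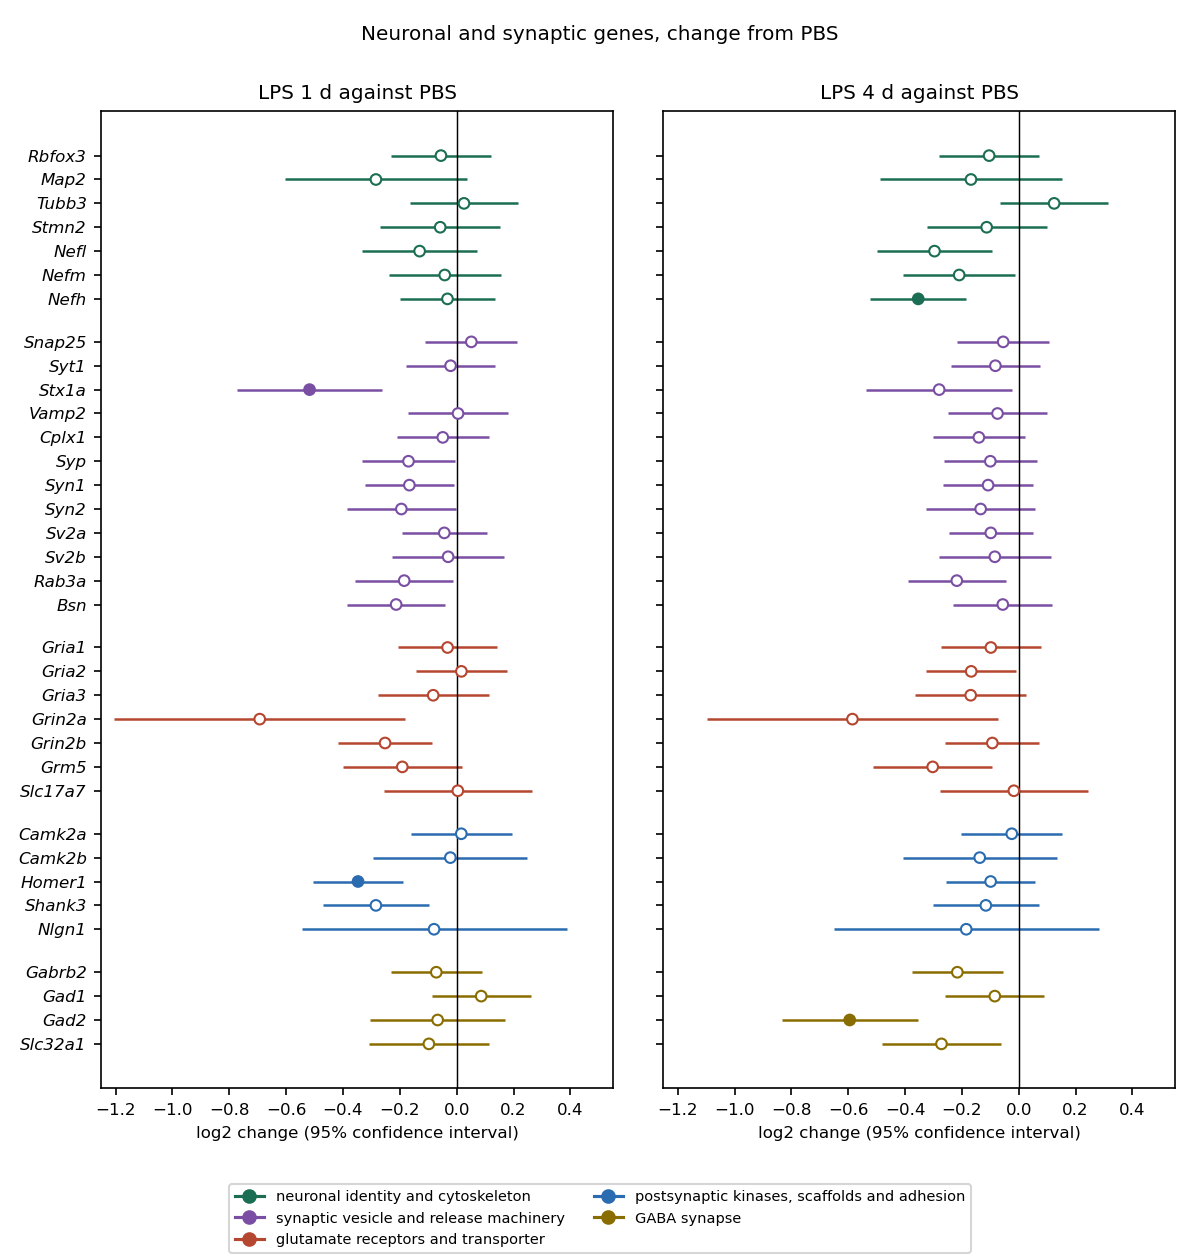
Log2 change from PBS (x axis) with its 95% confidence interval for each of the 35 genes (y axis, coloured by role), at 1 d (left) and 4 d (right) after LPS. Filled points had an adjusted p under 0.05, and at 4 d *Tubb3* is the one gene to the right of 0. *Grin2a* and *Nlgn1* had LPS means below background, so the size of their differences is uncertain.

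The promoters of *Gad2*, *Stx1a* and *Homer1* are shown because these genes reached an adjusted p under 0.05 in a comparison with PBS. They run from 250 bases before to 50 after the annotated start, from RefSeq on GRCm38.p6, in lower case with searched motifs in capitals. They lie at chr2:22622077-22622376, plus strand, at chr5:135023232-135023531, plus strand, and at chr13:93303507-93303806, plus strand; a second *Homer1* start is annotated and not shown.
Gad2: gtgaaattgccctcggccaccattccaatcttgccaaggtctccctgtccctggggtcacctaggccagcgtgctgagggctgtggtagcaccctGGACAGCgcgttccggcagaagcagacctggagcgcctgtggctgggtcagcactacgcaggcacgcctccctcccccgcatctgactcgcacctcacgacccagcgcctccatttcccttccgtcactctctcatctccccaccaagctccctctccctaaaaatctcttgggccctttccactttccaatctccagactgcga
Stx1a: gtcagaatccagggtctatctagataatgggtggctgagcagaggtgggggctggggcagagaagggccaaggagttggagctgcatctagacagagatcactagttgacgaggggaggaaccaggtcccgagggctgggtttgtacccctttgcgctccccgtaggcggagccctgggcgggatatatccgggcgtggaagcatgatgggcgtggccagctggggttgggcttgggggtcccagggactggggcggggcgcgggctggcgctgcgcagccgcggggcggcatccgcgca
Homer1: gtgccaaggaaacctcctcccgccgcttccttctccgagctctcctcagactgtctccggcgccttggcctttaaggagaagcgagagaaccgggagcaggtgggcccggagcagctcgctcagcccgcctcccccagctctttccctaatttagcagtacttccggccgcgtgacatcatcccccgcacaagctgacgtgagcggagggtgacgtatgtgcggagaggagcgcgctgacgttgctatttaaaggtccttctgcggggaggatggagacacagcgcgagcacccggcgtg
The search covered CAGCACC and GGACAGC, parts of the RE1 element bound by the neuronal gene repressor REST, and TGACGTC, from the cyclic AMP response element, on both strands. The *Gad2* promoter held GGACAGC, in capitals, and the other 2 shown held none of the strings. Of the 25 members with a promoter in the table, 8 held at least 1 string in some promoter (32.0%), and 17.9% of all 27025 genes did. Counted by promoter, the shares were 21.6% of 37 and 15.9% of 32851. The 8 include *Dlg4*, which was not analysed on the arrays. Matches are descriptions of these letters and not of binding. Members lacking a promoter in the table, *Nefh* included, were not searched.

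*Gad2* encodes GAD65, the glutamate decarboxylase bound to synaptic vesicles, and it was the one gene past the test. Of the promoters shown, its own was the one with a searched string, GGACAGC. That string was in 4 of the 25 members with a promoter and in 7.59% of all genes. Whether it bears on the change was not tested. The *Gad2* log2 values were 8.70, 8.84 and 8.87 in PBS, 8.86, 8.64 and 8.70 at 1 d and 8.14, 8.39 and 8.09 at 4 d. The 1 d arrays overlapped PBS, and every 4 d array lay below all others. *Gad2* fell 1.51-fold at 4 d against PBS (log2 change -0.59, standard error 0.11, adjusted p = 0.0141 from limma), while the 1 d change was -0.07 (95% interval -0.31 to 0.17). The difference between 4 d and 1 d was -0.53 (adjusted p = 0.0360 from limma), short of the fold threshold. With single arrays left out its adjusted p lay between 0.0212 and 0.121, and it was under 0.05 in 1 of the 9 settings, without LPS 4 d replicate 2 (-0.62). The call at 4 d was lost without PBS replicate 2 (-0.58, adjusted p = 0.0597 from limma) or PBS replicate 3 (-0.56, adjusted p = 0.0620). It was also lost without the 4 d array numbered 1 (-0.56, adjusted p = 0.0597) or 3 (-0.54, adjusted p = 0.0560).

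The other genes of the GABA synapse were lower at 4 d by smaller amounts that did not pass the test. *Gabrb2*, a GABA-A receptor subunit, read 10.19, 10.10 and 10.24 in PBS, 10.12, 10.10 and 10.10 at 1 d and 9.96, 9.99 and 9.94 at 4 d. Its 4 d arrays lay below every other array, with a log2 change from PBS of -0.22 (adjusted p = 0.165 from limma). *Slc32a1*, the transporter that fills vesicles with GABA, had a change of -0.27 at 4 d (95% interval -0.48 to -0.06, adjusted p = 0.182) and -0.10 at 1 d. *Gad1*, which encodes the GAD67 form of the decarboxylase, differed by -0.08 at 4 d (95% interval -0.26 to 0.09) and 0.09 at 1 d on its brightest probe set. The median change of the 4 genes was -0.07 at 1 d and -0.24 at 4 d.

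On the probe sets used, the neurofilament genes had the most negative changes of the cytoskeletal group at 4 d. *Nefh*, the heavy subunit, read 8.36, 8.42 and 8.36 in PBS, 8.35, 8.32 and 8.38 at 1 d and 7.93, 8.06 and 8.09 at 4 d. PBS and 1 d arrays overlapped and the 4 d arrays lay below both. The 4 d change was -0.35 (1.28-fold lower, standard error 0.07, adjusted p = 0.0322 from limma), under the fold threshold. Left out singly, any of the 9 arrays took the adjusted p above 0.05, to 0.0530 to 0.117. *Nefl*, the light subunit, read 11.49, 11.24 and 11.23 in PBS, 11.18, 11.17 and 11.22 at 1 d and 10.96, 11.05 and 11.06 at 4 d. The groups did not overlap in either comparison with PBS, and the changes were -0.13 at 1 d and -0.30 at 4 d (adjusted p = 0.539 and 0.128). Without PBS replicate 1, its highest array, they were -0.05 and -0.21. *Nefm*, the medium subunit, differed by -0.21 at 4 d (adjusted p = 0.276). *Rbfox3* (the nuclear protein NeuN), *Map2* (a dendritic microtubule protein), *Stmn2* (a growth cone tubulin regulator) and *Tubb3* (neuronal beta-tubulin) differed by -0.17 to 0.12 at 4 d. Their groups overlapped at both times on the probe sets used, though not on every other probe set of these genes.

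The 12 vesicle and release genes had a median change of -0.11 at 1 d, with 10 below PBS, and of -0.10 at 4 d, with 12 below. *Stx1a*, the plasma membrane SNARE syntaxin, read 8.54, 8.32 and 8.30 in PBS, 7.77, 8.10 and 7.75 at 1 d and 8.08, 8.09 and 8.16 at 4 d. All LPS arrays lay below all PBS arrays, and LPS 1 d replicate 2 lay nearest to PBS in its group. The 1 d change was -0.52 (1.43-fold lower, standard error 0.11, adjusted p = 0.0396 from limma) and the 4 d change -0.28 (adjusted p = 0.263). Without LPS 1 d replicate 2 the 1 d change was -0.63 (adjusted p = 0.0150), and without any of the 8 other arrays in turn the adjusted p lay above 0.05, up to 0.134. *Rab3a*, the small GTPase of vesicles, read 9.82, 9.74 and 9.71 in PBS, 9.62, 9.59 and 9.51 at 1 d and 9.50, 9.61 and 9.50 at 4 d. LPS and PBS arrays did not overlap, and the changes were -0.18 and -0.22 (adjusted p = 0.281 and 0.190).

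Of the 12 vesicle genes, 7 had 1 d arrays all below PBS: *Stx1a*, *Rab3a*, *Syp*, *Syn1*, *Syn2*, *Sv2a* and the active zone scaffold *Bsn*. That was so for 14.0% of all genes, and for 18.5% of those above background. At 4 d it was so for 6 of the 12, beside 11.8% and 15.2%. *Snap25* (a SNARE) and *Syt1* (the calcium sensor) differed by 0.05 and -0.02 at 1 d and by -0.05 and -0.08 at 4 d. *Vamp2*, the vesicle SNARE, differed from PBS by 0.0048 at 1 d and -0.07 at 4 d. At 4 d all 12 lay below PBS, between -0.28 and -0.05, and 0 passed the test.

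For the glutamate receptors, *Grin2b*, an NMDA receptor subunit, read 8.71, 8.67 and 8.79 in PBS, 8.42, 8.53 and 8.48 at 1 d and 8.61, 8.67 and 8.61 at 4 d. The 1 d arrays lay below both other groups, with a change of -0.25 from PBS (95% interval -0.42 to -0.09, adjusted p = 0.118 from limma), and the 4 d change was -0.09. *Grin2a*, a further NMDA receptor subunit, had a mean above background in PBS only (3.95, against 3.26 at 1 d and 3.37 at 4 d), with 4.10, 3.51 and 4.24 in PBS, 2.93, 3.36 and 3.48 at 1 d and 3.56, 3.51 and 3.03 at 4 d. The PBS arrays had an SD of 0.39, the size of a change is not given because both LPS means were below background, and neither comparison passed (adjusted p = 0.165 and 0.240). *Grin2a* is counted among the 34 genes above background by its mean over all 9 arrays and among the 12 without overlap at 1 d. *Grm5*, a metabotropic receptor, differed by -0.19 and -0.30 (adjusted p = 0.369 and 0.137). The AMPA receptor subunits *Gria1*, *Gria2* and *Gria3* differed by -0.17 to -0.10 at 4 d. *Slc17a7*, the vesicular glutamate transporter of cortical neurons, differed from PBS by 0.0040 at 1 d (95% interval -0.26 to 0.26) and -0.02 at 4 d (95% interval -0.28 to 0.24).

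In the postsynaptic group, *Homer1*, a scaffold that links metabotropic receptors to calcium stores, read 10.10, 10.03 and 10.00 in PBS, 9.71, 9.67 and 9.70 at 1 d and 9.98, 9.92 and 9.92 at 4 d. The 1 d arrays lay below all others and the 4 d arrays between them and PBS. Its 1 d change was -0.35 (1.27-fold lower, standard error 0.07, adjusted p = 0.0261 from limma), and the 4 d arrays were 0.25 above the 1 d arrays (adjusted p = 0.135). Without any of the 3 PBS or 3 LPS 1 d arrays in turn the 1 d adjusted p rose above 0.05, up to 0.0961. *Shank3*, a scaffold of excitatory synapses, read 7.25, 7.28 and 7.36 in PBS, 6.96, 6.97 and 7.12 at 1 d and 7.28, 7.14 and 7.14 at 4 d. Its 1 d arrays lay below both other groups, with changes of -0.28 and -0.12 (adjusted p = 0.116 and 0.535). *Camk2a* and *Camk2b*, the subunits of the calcium-dependent kinase of the postsynaptic density, differed by -0.14 to 0.02. Their groups overlapped on the probe sets used, though not on every dimmer probe set of *Camk2a*.

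**Figure D2:**
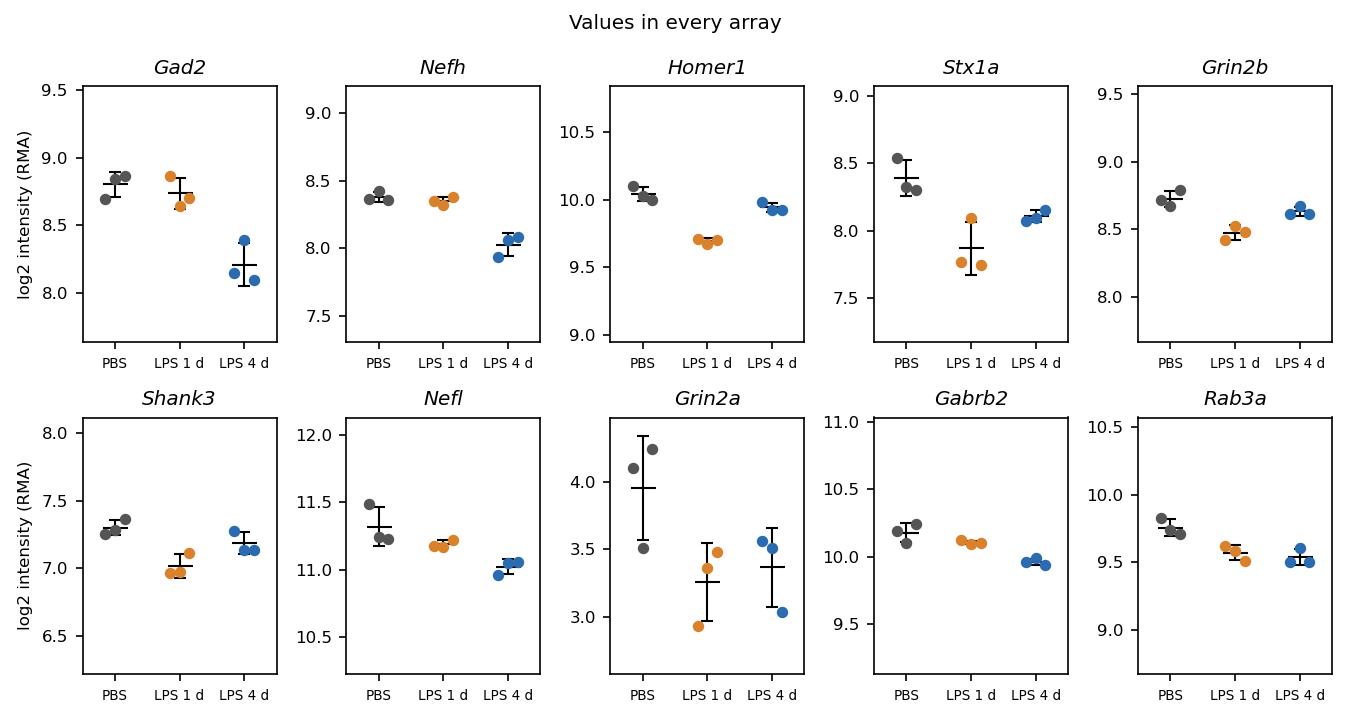
Log2 RMA intensity (y axis) in each array (points) of the 10 genes with the smallest F-test p in their role groups, with the group mean and SD (black bars, n = 3 arrays). *Gad2* and *Nefh* are lowest at 4 d, *Homer1*, *Stx1a*, *Grin2b* and *Shank3* at 1 d. The y axes span the same log2 range.

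Different probe sets of a gene did not always give the same size of change. Of the 35 genes, 20 had several probe sets, and 74 probe sets were measured in all. *Syt1*, chosen after its values were seen, had a brightest probe set at a mean of 11.8 that differed by -0.08 at 4 d, and dimmer ones at 9.17 and 8.83 that differed by -0.40 and -0.40 (adjusted p = 0.0229 and 0.0356 from limma). On the probe set at 9.17, the arrays read 9.49, 9.32 and 9.30 in PBS, 9.19, 9.17 and 9.17 at 1 d and 8.93, 9.01 and 8.98 at 4 d, so the groups were fully separated there. *Gad1* differed by -0.34 at 4 d on its dimmer probe set (adjusted p = 0.130) against -0.08 on the brighter one. *Nefl* differed by -0.13 at 4 d on its second probe set (adjusted p = 0.481 from limma), against -0.30 on its brightest. At 4 d the second *Stmn2* and *Map2* probe sets differed by -0.23 and -0.35, and the dimmer *Rbfox3* ones by -0.01 and -0.11. On the second *Stmn2* probe set, LPS arrays lay below all PBS arrays at both times. For *Camk2a*, the probe set at 7.06 differed by -0.29 at 4 d without overlap, and other dimmer ones above background by -0.12 to -0.08. For *Homer1*, 4 probe sets above background differed by -0.48 to -0.25 at 1 d and by -0.38 to -0.08 at 4 d. On the *Homer1* probe set at 6.64, the 4 d change was -0.38 (adjusted p = 0.0888 from limma), without overlap with PBS. The 4 d arrays were 0.10 above the 1 d arrays there, with overlap. For *Gabrb2* the 5 probe sets above background differed by -0.25 to -0.16 at 4 d. *Gad2*, *Nefh* and *Stx1a* had 1 probe set each. Over the 17 members with more than 1 probe set above background, the median change at 4 d was -0.10 on the brightest and -0.15 on the dimmer ones, and over all 4688 such genes it was -0.04 and -0.06.

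**Figure D3:**
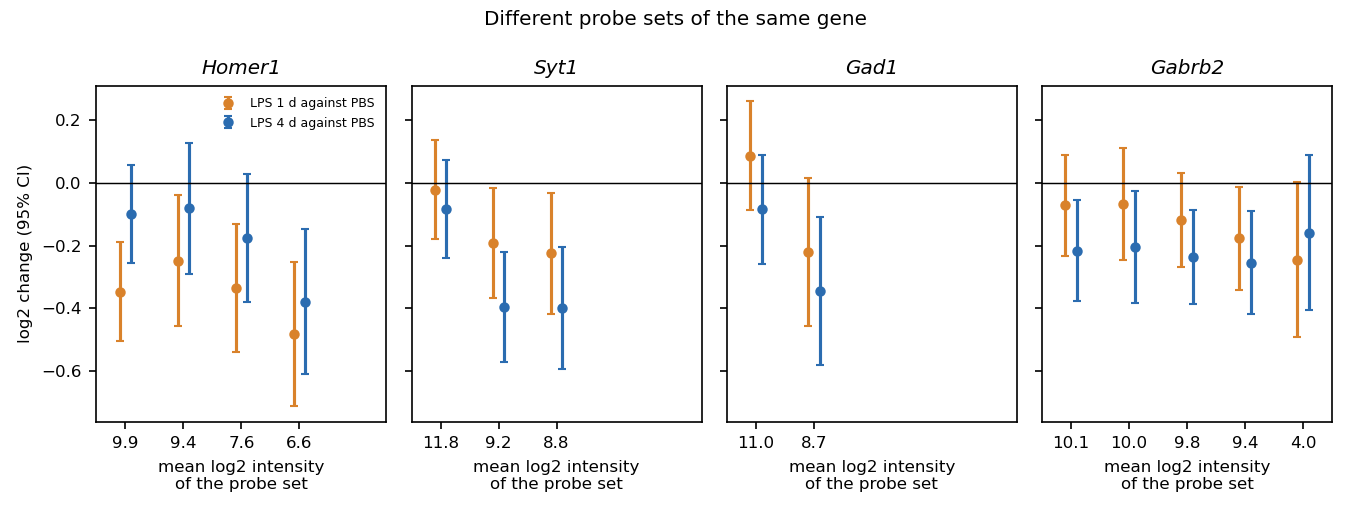
Log2 change from PBS with its 95% confidence interval (y axis) for each probe set above background of 4 genes, ordered by mean log2 intensity (x axis labels). The brightest *Syt1* probe set lies near 0 and the dimmer ones near -0.40 at 4 d, while the *Homer1* probe sets all lie below 0 at 1 d.

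A list of 86 further neuronal and synaptic genes, of which 67 were analysed, had the same lean. Its median change was -0.11 at 1 d, with 59 of 67 below PBS, and -0.15 at 4 d, with 61 below. All genes had medians of -0.03 and -0.02, with 56.6% and 55.6% below PBS. The list was read on the same arrays as the members, so its lean is also a description. At 1 d, 1 of the 67 passed the test as lower, beside 0.532% of all genes, and 0 as higher, beside 3.86%. That gene was *Grin2c*, an NMDA receptor subunit. *Grin2c* read 6.60, 6.74 and 6.65 in PBS, 5.88, 6.11 and 6.02 at 1 d and 6.70, 6.81 and 6.67 at 4 d. It fell 1.58-fold at 1 d (log2 change -0.66, adjusted p = 0.00255 from limma). It was 1.65-fold higher at 4 d than at 1 d (adjusted p = 0.00288 from limma), with no overlap. It was the 1 gene of the 67 past that test, beside 1.84% of all genes higher. *Gabrd*, an extrasynaptic GABA-A receptor subunit, differed by -0.41 and -0.39 (adjusted p = 0.0142 and 0.0172), under the fold threshold. At 4 d, 0 of the 67 passed the full test, beside 0.205% of all genes lower and 4.21% higher. An unadjusted p under 0.05 was reached by 10, all lower, beside 7.07% of all genes lower and 10.6% higher. At 1 d, 18 of the 67 did, all lower, beside 8.43% and 9.40%.

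Medians of immune cell markers differed from PBS by more than those of the members, apart from microglial markers in LPS 1 d replicate 2. Among genes above background, the median difference from the PBS mean was 2.06 to 2.51 in the 4 d arrays for monocyte and recruited macrophage markers and 1.30 to 1.59 for microglial markers. At 1 d microglial markers stood at 0.31, 0.03 and 0.31, with changes of single genes from -2.14 to 1.21. At 4 d, 1 of the 6 microglial markers lay below PBS. Neutrophil markers stood at 2.91 to 4.40 at 1 d, and oligodendrocyte markers at -0.41 to -0.21. Of the neuron classes, 0 of 8 striatal projection neuron markers and 0 of 7 cortical ones passed the test at either time, and all of them were above background. Of all genes, 0.532% passed as lower and 3.86% as higher at 1 d, and 0.205% and 4.21% at 4 d. Counts of 0 in lists this short are near those shares. Of 6 interneuron markers, 0 passed at 1 d and 1 passed as lower at 4 d, *Calb2* (-0.87, adjusted p = 0.0374 from limma). Thalamic and hypothalamic neuron markers, all 10 above background, stood at -1.29, -1.20 and -0.42 in LPS 4 d replicates 1, 2 and 3, against -0.16 to 0.16 in the other 6 arrays, and 3 of the 10 passed as lower at 4 d (*Tcf7l2*, *Ntng1* and *Pmch*). Choroid plexus markers, all 6 above background, stood at -0.38, -0.50 and -1.44 in LPS 4 d replicates 1, 2 and 3. Of these, 1 passed as lower at 4 d (*Otx2*). *Gad2* was at 8.14, 8.39 and 8.09 in LPS 4 d replicates 1, 2 and 3. The part of what either list marks in the *Gad2* value was not tested. With LPS 4 d replicates 1 and 2 both left out, the 4 d change from PBS was -0.71 for *Gad2* and -0.29 for *Nefh*. Each of these rests on 1 array at 4 d. The part of immune and glial cells in the small neuronal differences was not tested.

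**Figure D4:**
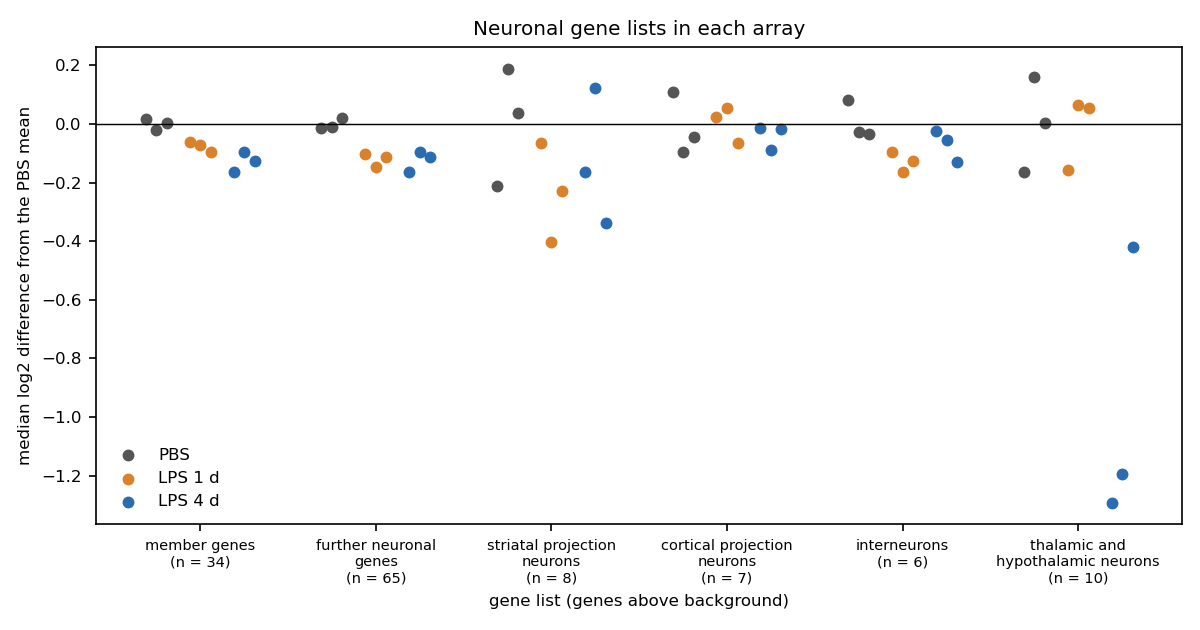
Median log2 difference from the PBS mean (y axis) in each array (points) for 6 lists of neuronal genes above background (x axis, n genes). The member genes lie between -0.17 and -0.06 in the LPS arrays, and the thalamic and hypothalamic list is at -1.29 and -1.20 in 2 of the LPS 4 d arrays.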

How the data were processed

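RNA from tissue around the injection site was measured on 9 Affymetrix HT MG-430 PM arrays in 3 groups of 3. The authors used RMA, run in Affymetrix Expression Console, and the deposited values are log2 expression per probe set. The version was not given in the sources used here. Intensities were not renormalized, and the number of arrays limits the precision. Each array held RNA pooled from several mice, so p-values measure the spread between pools.

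The 45037 probe sets other than the 104 controls were fitted with limma 3.58.1 in R 4.3.3 (group means, all 9 arrays, empirical Bayes, 3.02 prior degrees of freedom), with Benjamini-Hochberg adjustment of the p-values over all of them. The thresholds (adjusted p under 0.05, fold of at least 1.5) and the test across all groups follow the study. Symbols came from the platform annotation, checked through Entrez identifiers, with 28689 of 28898 single-symbol probe sets matched. The procedure was tested on simulated data. Values in every array are given for genes that passed any test and for the 2 with the smallest F-test p in each role group. The members and lists were chosen with earlier results of these data known. Figures were drawn with matplotlib in Python 3.11.15. Alternatives were an intensity trend, unmoderated tests, 2-group fits, no fold threshold, a background filter, median centring, other probe set choices, a replicate block and leaving out each array.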

Additional observations from a re-analysis of the deposited data

Results flagged for a closer look

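*Gad2* differed between the LPS time points: its difference from PBS was -0.07 at 1 d and -0.59 at 4 d, and limma's test of 4 d against 1 d gave a log2 difference of -0.53 (adjusted p = 0.0360), with every 4 d array below every 1 d array. Both groups were measured against the same PBS arrays. With single arrays left out, that adjusted p lay between 0.0212 and 0.121 and was under 0.05 in 1 of 9 settings (without LPS 4 d replicate 2). It was 0.0948 with a replicate block and 0.0904 without moderation, and it was also above 0.05 with only these 2 groups fitted.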

How the results depend on the processing

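The number of members past the test at 1 d was 0, and it was 0 to 1 lower when single arrays were left out and 2 lower with no fold threshold. At 4 d it was 1 lower (*Gad2*), 0 to 1 when single arrays were left out and 2 with no fold threshold. It was 0 with the probe set of second highest mean, which 20 members had. *Gad2* had no second probe set, so that count could not include it. For 4 d against 1 d the count was 0 to 1 lower when single arrays were left out and 1 with no fold threshold. Across the 3 groups, the count of 3 became 11 with an intensity trend and 0 to 2 when single arrays were left out. With the second probe set it was 1, and *Gad2* and *Nefh*, which had none, could not be counted. Leaving out LPS 4 d replicates 1 and 2 together was an alternative added after seeing the data.

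The median change of the members at 4 d was -0.16 with the mean of all probe sets and -0.15 to -0.11 when single arrays were left out. At 1 d it was -0.11 with the second probe set and -0.09 to -0.05 with single arrays left out. For 4 d against 1 d it was 0.0058 with the second probe set and -0.08 to -0.04 with single arrays left out. The medians with the second probe set cover only the 20 members that had one, and some of those probe sets were below background. Median centring moved no count or median of the members beyond the spread between arrays. Of the further neuronal genes, the count past the test as lower at 1 d was 2 with no fold threshold and 0 with the second probe set. At 4 d it was 1 with an intensity trend, no fold threshold, the mean of all probe sets, the second probe set or a replicate block, and 0 to 1 with single arrays left out. As higher at 4 d against 1 d it was 0 with the second probe set and 0 without both LPS 4 d replicates. No named member with an adjusted p under 0.05 changed sign under these alternatives. The cause of these shifts was not tested.

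Replicate numbers did not pair the arrays: same-numbered arrays correlated at -0.03 to 0.02 in their deviations, and 2 of 9 arrays correlated best with their own number. With the replicate block, the count across the 3 groups was 0, the *Gad2* change at 4 d kept an adjusted p of 0.0471 from limma, and that of *Nefh* was 0.0778.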
